A study of Homo sapiens with 8 samples.

Results

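The MYC network is the set of transcription factors built around MYC and its obligate partner MAX, and 9 of its genes were followed here across 2 human colorectal cancer cell lines: MYC, MAX, MXI1, MXD1, MXD3, MXD4, MNT, MLX and MYCBP. They were taken by symbol from the 25192 genes in each library's table, and all 9 were found and passed the filter on low counts in every comparison. Messenger RNA was sequenced from 8 libraries. HT29 cells, kept in McCoy's 5A medium, and SW480 cells, kept in RPMI1840 medium, both carry a truncated APC protein. Each line received either control siRNA (siCon) or an siRNA against PRDX2 (siPrdx2), the gene of the cytosolic peroxidase peroxiredoxin II (PrxII), for 36 h, with 2 libraries per line and treatment. The study asked how loss of PrxII affects colorectal cancer cells with mutant APC. The study's legend to its HT29 heat map speaks of duplicate experiments. Neither the labels nor the methods say whether the duplicates were separate transfections. The p-values therefore measure only the spread between these libraries, which may be technical. Each line is a single established cell line, so the libraries stand for 2 lines and not for a class of tumours.

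MYC is a basic helix-loop-helix leucine zipper protein that binds the E-box of its target promoters as a dimer with MAX and raises the transcription of genes for ribosome assembly, nucleotide synthesis and the cell cycle. The MXD proteins, MXI1 and MNT compete with MYC for MAX and recruit SIN3 and histone deacetylase corepressors to the same sites. MLX is a MAX-like protein that pairs with MLXIP and MLXIPL, the glucose-responsive branch of the network, and also with MXD1, MXD4 and MNT. In colorectal epithelium with mutant APC, MYC is a well-known target of β-catenin and TCF.

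The promoters of the network genes were searched for the canonical E-box, since it is the shared binding sequence of the MYC-MAX, MXD-MAX and MLX dimers. RefSeq promoter windows of 300 bases, from 250 bases before to 50 bases after each annotated start in GRCh38.p14, were read for 8 of the members in 12 windows. The palindrome CACGTG, which reads the same on both strands, was in a window of 3 members, MXD4, MNT and MLX. These are shown 5′ to 3′ on the strand of the gene with the E-box in capitals and 10 bases on each side.
MXD4: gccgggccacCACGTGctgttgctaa
MNT: ctgcccgggcCACGTGtgcgcgcgcc
MLX: gggcgcgggtCACGTGggcacgccac
The stretch of MXD4 lies at chr4:2262332-2262357 on the minus strand, with the motif beginning 238 bases before the start. That of MNT lies at chr17:2401238-2401263 on the minus strand, 193 bases before the start. That of MLX lies at chr17:42567040-42567065 on the plus strand, 50 bases before the start. The same motif was in 8.77% of 27305 genes and in 7.26% of 35116 windows of this length. A match describes the letters only and is not a measured binding site.

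Library totals ran from 8857442 to 10164137 expected counts, and 3 counts corresponded to 0.295 to 0.339 CPM (counts scaled to the raw library total), which covers counting error only. CPM values below also include edgeR's TMM factors. PRDX2 itself was at 148.1 and 153.8 CPM under control siRNA and at 82.4 and 83.2 CPM under PrxII siRNA in HT29 cells. In SW480 cells, PRDX2 was at 209.1 and 246.1 CPM under control siRNA and at 69.5 and 70.7 CPM under PrxII siRNA. PRDX2 thus fell by 45.1% in HT29 and by 69.2% in SW480. The SW480 control libraries stood apart from each other. Their counts differed by a chi-square of 11.2 per degree of freedom, against 1.43, 1.71 and 2.13 for the other duplicate pairs, and the difference between them followed transcript GC content with a Spearman rho of 0.80 over 10567 genes, against 0.16 to 0.25 in the other pairs. SW480 values are therefore also given without each control library where a member's call changed. All 9 colorectal epithelial markers were at 1 TPM (transcripts scaled for length and depth) or more in every HT29 library and 7 of 9 in every SW480 library, where KRT20 and CDH17 were lower. Of the markers of other cells, fibroblast genes summed to 2.06 to 12.4 TPM, leukocyte genes to 12.6 to 27.9 TPM and endothelial genes to 0.10 to 1.96 TPM over all libraries, against 9875 to 17591 TPM for the epithelial list. Of these markers of other cells, COL1A1 and CD68 were at 1 TPM or more in every library of both lines. The same held for PDGFRB and VWF in every SW480 library, and no other marker reached 1 TPM in all libraries of a line.

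MYC was the most abundant member in every group by TPM, the scale that corrects for transcript length and library size. Its level was 218.3 and 229.5 TPM in control HT29 cells and 234.2 and 233.9 TPM after PrxII depletion. In SW480 it was at 356.5 and 388.0 TPM under control siRNA and at 443.0 and 451.0 TPM after PrxII depletion. On the TPM scale the median log2 fold change of all genes tested was 0.06 in HT29 and 0.08 in SW480. TPM levels before and after depletion carry this shift. MYC made up 39.6% and 40.9% of the summed TPM of the 9 genes in the HT29 control libraries and 39.3% and 39.5% in the PrxII siRNA libraries. In SW480 its share was 52.2% and 52.7% under control siRNA and 52.5% and 52.6% after PrxII depletion, so the lines stood further apart than the treatments.

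In HT29 control cells, MLX at a mean of 82.5 TPM was second and was followed by MXD3 at 54.8, MYCBP at 49.3, MAX at 45.5, MXI1 at 36.2, MXD4 at 31.6, MXD1 at 17.9 and MNT at 14.7 TPM. Only the neighbours MYCBP and MAX overlapped between their duplicates. After PrxII depletion the order in HT29 was the same, and the overlapping neighbours were MXD3 and MYCBP. In SW480 control cells, MAX came second at a mean of 97.0 TPM, followed by MXD3 at 70.0, MLX at 64.9, MYCBP at 46.5, MXI1 at 25.5, MNT at 13.3, MXD1 at 12.04 and MXD4 at 8.43 TPM. MXD3 and MLX overlapped there, and so did MNT and MXD1. In SW480 cells after PrxII depletion, MXD4 at a mean of 17.1 TPM stood above MNT at 16.9 and MXD1 at 14.1 TPM, although MXD4 and MNT overlapped. MXD4 was thus the lowest member in the SW480 control libraries and no longer the lowest in the PrxII siRNA libraries.

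**Figure D1:**
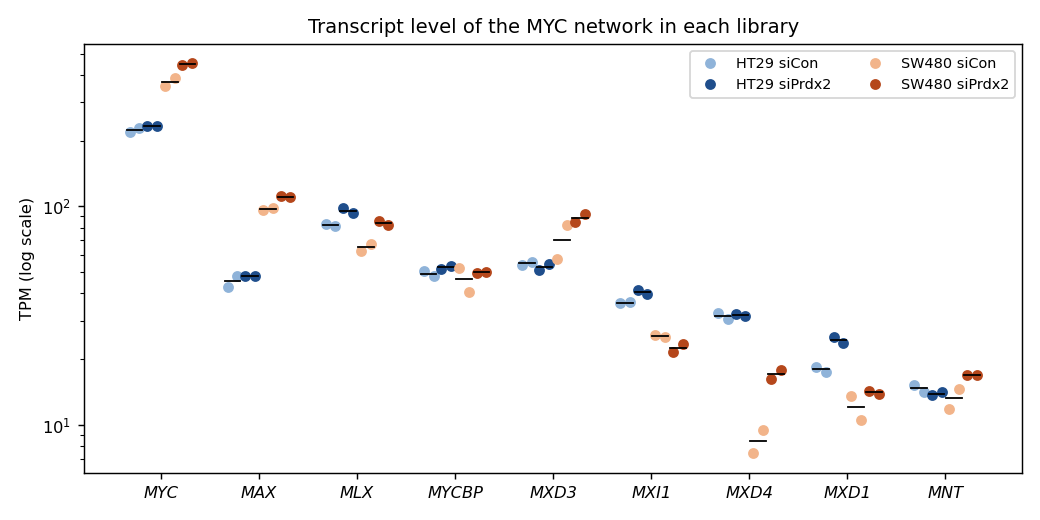
Transcript level of each MYC network gene on a log axis of TPM, with 1 point per library, the 4 groups side by side for each gene and a bar at the mean of 2 libraries. MYC is the highest gene in every group, MAX is higher in SW480 than in HT29, and MXD4 in SW480 lies at 7.40 and 9.45 TPM under control siRNA and at 16.3 and 17.9 TPM under PrxII siRNA.

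**Figure D2:**
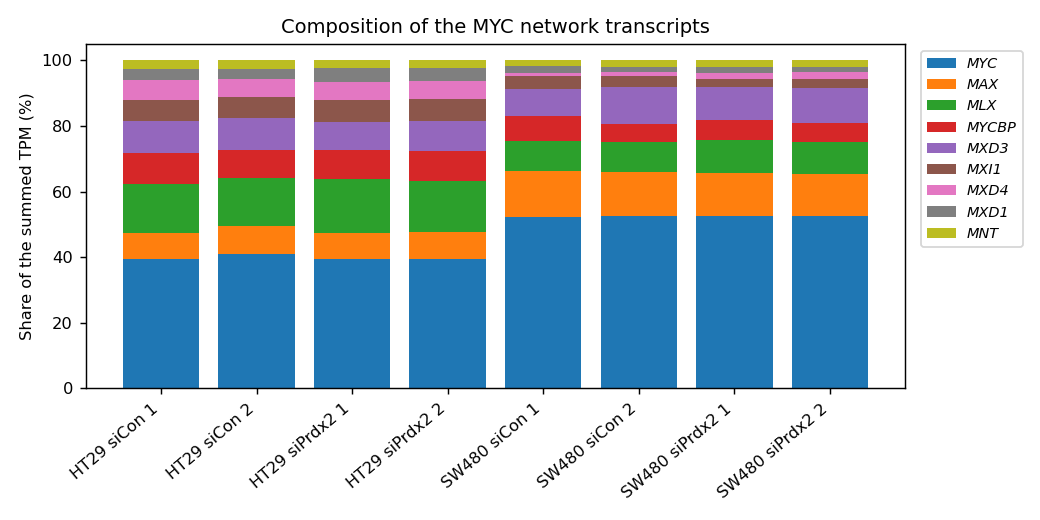
Share of each member in the summed TPM of the 9 genes, as a stacked bar for each of the 8 libraries. The MYC segment spans 39.3% to 40.9% in the HT29 libraries and 52.2% to 52.7% in the SW480 libraries.

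Before any effect of PrxII depletion, the lines differed in the makeup of the network under control siRNA. MYC and MAX were higher in SW480, while MXI1, MXD1, MXD4 and MLX were lower. Of the 9 members, 2 were higher and 4 were lower by the quasi-likelihood test of edgeR, with p-values adjusted over 14346 genes by the Benjamini-Hochberg method. At the same threshold of 0.05, 67.5% of all genes differed between the lines, 35.7% higher and 31.8% lower in SW480, so the members differed about as often as genes in general. Cell line, culture medium and library preparation cannot be told apart in this comparison.

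The control libraries of HT29 held MYC at 236.6 and 249.0 CPM, and those of SW480 held it at 377.0 and 414.1 CPM. CPM values were scaled within each line, and the ratios between lines come from a joint fit of the 4 control libraries. The groups did not overlap, and the log2 ratio was 0.61 (SE 0.10, adjusted p = 6.6e-04 by edgeR). MAX, the partner without which MYC does not bind DNA, was at 38.6 and 43.0 CPM in HT29 and at 81.6 and 86.2 CPM in SW480, a log2 ratio of 0.94 (SE 0.12, adjusted p = 1.5e-04 by edgeR). This was a fold of 1.92 with a 95% confidence interval of 1.59 to 2.32. MXD4, a repressor partner of MAX, showed the widest gap of the 9 members, at 56.8 and 53.3 CPM in HT29 against 12.6 and 16.2 CPM in SW480, a log2 ratio of -2.03 (SE 0.16, adjusted p = 7.1e-06 by edgeR). MXI1 and MXD1 were also lower in SW480, with log2 ratios of -0.63 (SE 0.12) and -0.70 (SE 0.15), and so was MLX at -0.49 (SE 0.11), with adjusted p of 0.0015, 0.0028 and 0.0042 by edgeR. MXD3 had a log2 ratio of 0.25, MNT -0.27 and MYCBP, a MYC-binding protein, -0.21, and none of these passed the test (adjusted p = 0.21, 0.14 and 0.22 by edgeR). These 3 values turned on the SW480 control pair. Without the first SW480 control library MXD3 was at 0.57 and MYCBP at -0.31, both called (adjusted p = 1.4e-07 and 0.0015 by edgeR), and MNT was at -0.04. Without the second, MNT was at -0.37 and called (adjusted p = 0.0039 by edgeR), MXD3 was at 0.03 and MYCBP at 0.02. GC correction also called MXD3 (0.45, adjusted p = 1.6e-04) and MYCBP (-0.29, adjusted p = 0.0041). The call on MYC was lost without the first HT29 control library (0.54, adjusted p = 0.057), and that on MLX without either HT29 control library (adjusted p = 0.087 and 0.068).

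On the length-corrected scale, these differences gave a higher ratio of MYC to its antagonists in SW480. MYC over the sum of MXI1, MXD1, MXD3, MXD4 and MNT was 1.40 and 1.49 in the HT29 control libraries and 3.07 and 2.72 in those of SW480. After PrxII depletion it was 1.43 in both HT29 libraries and 2.88 and 2.74 in SW480. The treated values lay within the range of the controls in each line and apart between the lines. MYC over MAX was 4.78 to 5.09 in HT29 and 3.71 to 4.11 in SW480, so this ratio was the smaller in the line with more of both.

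In HT29 cells, no change of MYC transcripts was detected after PrxII depletion. MYC was at 236.6 and 249.0 CPM under control siRNA and at 242.2 and 243.2 CPM under PrxII siRNA, with the treated libraries inside the range of the controls. The log2 fold change was 0.00 (SE 0.04), and its 95% confidence interval of -0.08 to 0.08 corresponds to a fold of 0.946 to 1.06. MAX was at 38.6 and 43.0 CPM under control siRNA and at 42.0 and 42.4 CPM under PrxII siRNA, also overlapping, with a log2 fold change of 0.05 and an interval of -0.10 to 0.20. On the TPM scale, the all-gene median of HT29 shifted upwards by 0.06 on the log2 scale, and MYC was 0.06 higher there too.

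Of the 9 members, 2 rose in HT29 cells and none fell by the quasi-likelihood test of edgeR within that line (Benjamini-Hochberg adjusted). Of all 12961 genes tested, 17.6% were called, 7.76% higher and 9.82% lower, so with 9 genes the members were called at a share near that of all genes. MXD1, a repressor that pairs with MAX and is known to accompany differentiation, was at 47.9 and 45.6 CPM under control siRNA and at 62.5 and 59.3 CPM under PrxII siRNA. Both treated libraries lay above both controls. The rise was 30.3%, a log2 fold change of 0.38 (SE 0.06, 95% confidence interval 0.25 to 0.52, adjusted p = 3.6e-04 by edgeR). MXD1 shares bases with SNRNP27 on the same strand in the GENCODE annotation, counting whole gene spans with introns. Overlap of exons, where reads could be counted for either gene, was not tested. The call was lost when all 8 libraries were fitted together (adjusted p = 0.14) and in limma without a trend (adjusted p = 0.076), with log2 fold changes of 0.38 and 0.43 in those fits.

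MLX, the MAX-like partner, rose by 11.2% in HT29 cells. It was at 91.4 and 89.5 CPM under control siRNA and at 102.3 and 98.7 CPM under PrxII siRNA, without overlap, a log2 fold change of 0.15 (SE 0.05, 95% confidence interval 0.05 to 0.26, adjusted p = 0.040 by edgeR). This call sat close to the threshold. Without any 1 of the 4 HT29 libraries the adjusted p was 0.052 to 0.21, and DESeq2 gave 0.33. The gene span of MLX, introns included, overlaps that of PSMC3IP on the opposite strand, and the library kit does not mark strand.

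The other repressors were not called in HT29. MXI1 was at 54.1 and 55.5 CPM against 60.2 and 57.6 CPM, with the treated libraries higher and a log2 fold change of 0.11 (interval -0.02 to 0.23). MXD3, a repressor seen in proliferating cells, was at 62.4 and 62.6 CPM against 56.1 and 60.2 CPM, a log2 fold change of -0.11 (interval -0.23 to 0.02). MNT, the most widely expressed antagonist of MYC, was at 34.3 and 31.6 CPM against 29.4 and 30.3 CPM, a log2 fold change of -0.14 (interval -0.32 to 0.03). For each of these the treated libraries lay on one side of the controls, and each interval included no change. MXD4 was at 56.8 and 53.3 CPM against 53.6 and 52.9 CPM, overlapping, with a log2 fold change of -0.05 (interval -0.18 to 0.08). MYCBP was at 59.7 and 56.2 CPM against 58.1 and 60.4 CPM, overlapping, with a log2 fold change of 0.03 (interval -0.10 to 0.16). Of the reads shared between MYCBP and a readthrough transcript with GJA9, at most 3.95% in any library were assigned to the readthrough.

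In SW480 cells the one member that rose was MXD4, and no member fell. Of all 14112 genes tested there, 3.3% were called, 1.22% higher and 2.08% lower. MXD4 was at 12.6 and 16.2 CPM under control siRNA and at 26.1 and 28.7 CPM under PrxII siRNA. These are 109 and 152 counts against 254 and 284. Both treated libraries lay above both controls, and on the TPM scale they lay below every HT29 library. The rise was 89.7%, a log2 fold change of 0.92 (SE 0.17, 95% confidence interval 0.53 to 1.31, adjusted p = 0.030 by edgeR). With GC correction the log2 fold change was 0.70 (adjusted p = 0.0013), and MXD4 transcripts are GC-rich, at percentile 86.8 of the tested genes. Without the first control library it was 0.75 and without the second 1.12, both past the threshold. Without either PrxII siRNA library the spread rested on the control pair. The log2 fold change of MXD4 was then 0.99 and 0.86 and was not called, in fits that called far fewer of all genes than the main fit.

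MYC in SW480 was at 377.0 and 414.1 CPM under control siRNA and at 442.1 and 450.5 CPM after PrxII depletion. Both treated libraries lay above both controls, but the log2 fold change of 0.17 (SE 0.10, 95% confidence interval -0.05 to 0.39) did not pass the test (adjusted p = 0.30 by edgeR). Without the second control library it was 0.24 and passed the threshold, in a fit that called far more of all genes than the main fit. Without the first it was 0.11 and did not pass. The call on MYC therefore turned on which control library was kept. MAX was at 81.6 and 86.2 CPM against 91.6 and 88.7 CPM, a log2 fold change of 0.10 (interval -0.14 to 0.35).

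**Figure D3:**
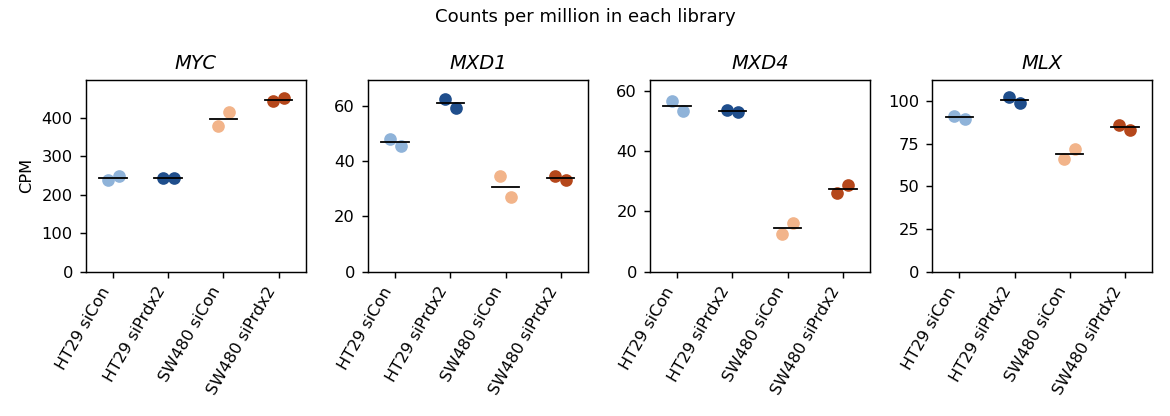
CPM of MYC, MXD1, MXD4 and MLX in each library, with axes from 0, points for libraries and a bar at the mean of 2 libraries per group. MXD1 separates in HT29, at 45.6 to 47.9 against 59.3 to 62.5 CPM, and MXD4 separates in SW480, at 12.6 to 16.2 against 26.1 to 28.7 CPM.

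MLX in SW480 was at 66.2 and 72.1 CPM under control siRNA and at 85.8 and 83.1 CPM after PrxII depletion. The treated libraries were higher, and the log2 fold change of 0.29 (SE 0.11, 95% confidence interval 0.03 to 0.54) had an adjusted p of 0.17 by edgeR. With GC correction it was 0.24 and passed the test (adjusted p = 0.021), and it also passed when all 8 libraries were fitted together (adjusted p = 0.033). It passed without either control library as well, at 0.23 and 0.34. Each of these fits called more of all genes than the main fit. The transcript GC content of MLX is at percentile 59 of the tested genes. Without either PrxII siRNA library MLX was not called, in fits that called far fewer of all genes than the main fit.

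The remaining repressors and MYCBP were not called in SW480. MXD3 was at 65.3 and 94.2 CPM under control siRNA and at 92.3 and 99.6 CPM after PrxII depletion, overlapping, with a log2 fold change of 0.27 (interval -0.11 to 0.64). MNT was at 26.0 and 32.4 CPM against 34.8 and 34.9 CPM, a log2 fold change of 0.25 (interval -0.08 to 0.59). Both are GC-rich, at percentiles 91.7 and 86.1 of the tested genes, and both were called without the second control library (0.55 and 0.42) and not without the first (0.02 and 0.11). MXI1 went the other way, at 38.5 and 37.4 CPM against 30.4 and 33.3 CPM, a log2 fold change of -0.25 (interval -0.54 to 0.04). Its transcripts are at percentile 24.2 of GC content, and without the second control library MXI1 was called lower (-0.28, adjusted p = 0.023). MXD1 was at 34.4 and 27.1 CPM against 34.4 and 33.2 CPM, overlapping, with a log2 fold change of 0.14 (interval -0.20 to 0.48). It was 0.31 and called without the first control library (adjusted p = 0.030) and -0.03 without the second. MYCBP was at 59.998 and 47.2 CPM against 53.8 and 54.2 CPM, with the treated libraries inside the controls and a log2 fold change of 0.01 (interval -0.31 to 0.33). The part of the control pair in these values was not tested beyond the fits without each control library. Those fits called more of all genes than the main fit.

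**Figure D4:**
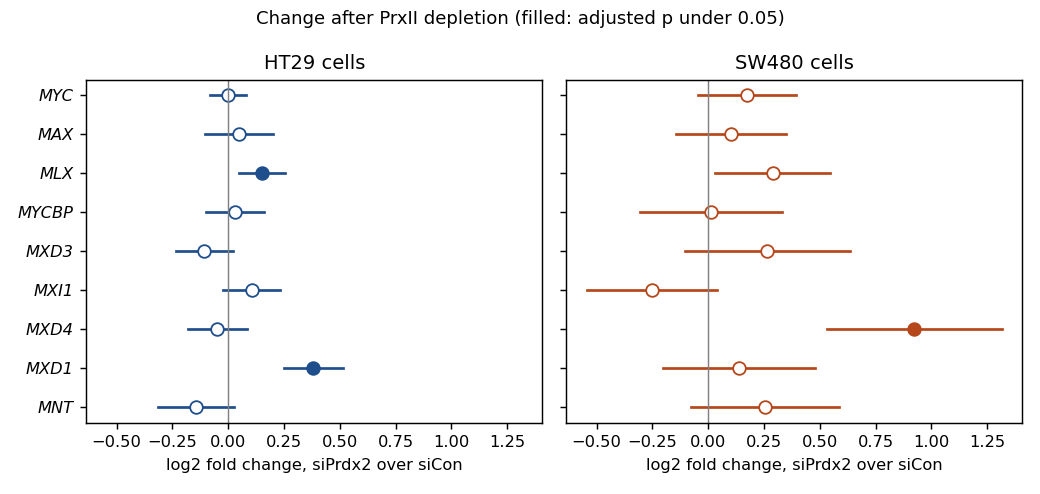
log2 fold change of PrxII siRNA over control siRNA for the 9 members in HT29 (left) and SW480 (right), with 95% confidence intervals from 2 libraries per group and filled points for an adjusted p under 0.05. MXD1 and MLX are filled in HT29 and MXD4 in SW480, and the intervals are wider in SW480.

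For 1 member, MXD4, the response to PrxII depletion was not the same in both lines. In a single fit of all 8 libraries, the log2 fold change of MXD4 in HT29 minus that in SW480 was -0.97 (SE 0.17, 95% confidence interval -1.34 to -0.60, adjusted p = 0.026 by edgeR), while 1.12% of the 14772 genes tested differed. The 3 limma fits on TPM did not call it, and neither did the fits without any 1 of the HT29 or SW480 PrxII siRNA libraries or HT29 control libraries. All of those fits called fewer of all genes than the main fit. MXD1, which rose in HT29 and was not called in SW480, was not shown to differ, with a difference of 0.25 (interval -0.11 to 0.60, adjusted p = 0.42 by edgeR). The same held for MLX, with a difference of -0.13 (interval -0.38 to 0.11, adjusted p = 0.53 by edgeR), and for MYC, with -0.17 (interval -0.39 to 0.04, adjusted p = 0.35 by edgeR). The differences of MXI1 (0.36), MNT (-0.40), MXD3 (-0.37), MAX (-0.05) and MYCBP (0.02) did not pass the threshold, with adjusted p from 0.17 to 0.99 by edgeR. Without the second SW480 control library the differences were -0.25 for MYC, 0.37 for MXI1, 0.40 for MXD1, -0.67 for MXD3 and -0.58 for MNT. That fit called more members, and also far more of all genes, than the main fit. MXD4 passed without either SW480 control library, and more of all genes passed there too. PRDX2 itself differed in the extent of its fall between the lines, by 0.84 (adjusted p = 0.013 by edgeR), and the part of this in the members' differences was not tested.

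The balance between MXD4 and MXD1, repressors that compete for the same partners, moved in opposite directions on the TPM scale. MXD4 over MXD1 was 1.77 and 1.75 in the HT29 control libraries and 1.28 and 1.33 after PrxII depletion. In SW480 it was 0.547 and 0.895 under control siRNA and 1.13 and 1.30 after PrxII depletion. The ratio was lower in both treated HT29 libraries and higher in both treated SW480 libraries, and the 4 treated libraries lay between 1.13 and 1.33. MLX over MAX was 1.95 and 1.70 in HT29 control cells against 2.04 and 1.95 after PrxII depletion, and 0.650 and 0.687 against 0.766 and 0.751 in SW480. MXD1 was the repressor called in HT29 and MXD4 the one called in SW480, so the ratio of the pair restates those calls and adds nothing to them. MXD4 is at percentile 86.8 of GC content and MXD1 at 31.1, and the SW480 control libraries differed from each other along GC content. No test was made on these ratios.

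Transcript usage within the members varied little as far as RSEM's mean transcript length shows it. The length of MAX was 1961 to 2015 nt in HT29 and 1914 to 1959 nt in SW480. That of MXI1 was 3258 to 3302 nt in HT29 and 3269 to 3329 nt in SW480, and that of MXD3 was 2459 to 2570 nt over all 8 libraries. MYC, MNT and MXD4 had 1 length each in all libraries, 2366, 4842 and 3773 nt. A gene with a single annotated transcript would give the same, so the length says nothing on transcript usage there.

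In GRCh37, the build of the files, MYC lies on chromosome 8 from 128747680 to 128755197 on the plus strand and MAX on chromosome 14 from 65472892 to 65569413 on the minus strand. MAX overlaps FNTB on the opposite strand over much of its length, counting whole gene spans with introns. Overlap of exons, where reads of the pair could be mixed, was not tested. MXD1 is on chromosome 2 from 70124820 to 70170077 (plus), MXD3 on chromosome 5 from 176728462 to 176739758 (minus), MXD4 on chromosome 4 from 2249159 to 2263836 (minus) and MXI1 on chromosome 10 from 111967363 to 112047123 (plus). MNT and MLX are both on chromosome 17, from 2287367 to 2304398 (minus) and from 40719090 to 40725257 (plus), and MYCBP is on chromosome 1 from 39328165 to 39339040 (minus). MXD3 shares bases with RAB24 on the same strand and with PRELID1 on the other.

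Across the 8 libraries, genes whose log2(TPM + 1) followed MYC most closely included NOP16, a nucleolar protein of ribosome assembly, CHPF, an enzyme of chondroitin chain synthesis, PWP2, a part of the small-subunit processome, and UAP1L1. Their Pearson r with MYC was 0.998 each, among 11566 genes with a mean of at least 5 TPM. Among the members, MAX had r = 0.99 and MXD3 0.91, while MXI1 had -0.97, MXD1 -0.79 and MXD4 -0.76. MNT at 0.39, MLX at -0.47 and MYCBP at -0.34 followed MYC less closely. The 8 points share 2 lines, and the correlations were not split into parts between and within lines.

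Genes that work with the network were read from lists of its partners, cofactors and targets. All of these lists were chosen with earlier results of these data known, so every count on them here and below is a description only. In HT29 cells, 2 of 3 targets of the MLX branch rose. TXNIP, an inhibitor of thioredoxin and a classic target of MLX with MLXIP, was at 512.5 and 514.6 CPM under control siRNA and at 848.1 and 861.2 CPM after PrxII depletion. Its log2 fold change was 0.73 (SE 0.02, adjusted p = 8.8e-13 by edgeR). ARRDC4, a related arrestin-domain protein and target of the same factors, was at 36.0 and 37.1 CPM against 61.7 and 65.4 CPM, a log2 fold change of 0.80 (SE 0.07, adjusted p = 1.4e-07 by edgeR). Both remained called in all 15 alternative fits made in HT29. PKLR, the third gene of the list, was at 1.25 to 1.74 CPM and was not called. So 2 of 3 rose, where 7.76% of all genes did, with a list median of 0.73 against 0.00 for all genes. As the list was chosen with earlier results of these data known, this count is a description only.

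In SW480 none of the 3 MLX targets was called. TXNIP was at 167.0 and 136.0 CPM under control siRNA and at 179.6 and 180.1 CPM after PrxII depletion, with the treated libraries higher and a log2 fold change of 0.25 (SE 0.12, adjusted p = 0.25 by edgeR). With GC correction it was 0.36 and was called (adjusted p = 0.0033). ARRDC4 was at 19.1 and 18.7 CPM against 20.9 and 22.2 CPM, a log2 fold change of 0.19 (adjusted p = 0.45 by edgeR). The HT29 effect minus the SW480 effect was 0.49 for TXNIP and 0.61 for ARRDC4, and neither passed the threshold (adjusted p = 0.074 and 0.066 by edgeR). Calls among the 3 changed without the first SW480 control library, in a fit that called more of all genes than the main fit. The list median in SW480 was 0.19 against 0.00 for all genes.

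The upstream partners of MLX and the other E-box factors were not called in either line, 0 of 6 tested in each by edgeR. MLXIP, the main partner of MLX outside liver, was at 99.7 and 101.5 CPM in HT29 control cells and at 111.8 and 109.3 CPM after PrxII depletion (log2 fold change 0.14, adjusted p = 0.061 by edgeR). In SW480, MLXIP was at 40.5 and 49.98 CPM against 57.8 and 60.2 CPM (0.38, adjusted p = 0.14 by edgeR). MLXIPL, the carbohydrate-response partner, was at 10.5 and 11.4 CPM against 18.3 and 17.0 CPM in SW480 (0.68, adjusted p = 0.062 by edgeR). In HT29, MLXIPL was at 1.74 and 1.25 CPM against 1.07 and 0.946 CPM (-0.56, adjusted p = 0.39 by edgeR). MYCL1, a paralog of MYC, was at 14.7 and 14.8 CPM against 9.15 and 10.01 CPM in SW480 (-0.62, adjusted p = 0.081 by edgeR). Without either SW480 control library some of these factors were called in each direction, in fits that called more of all genes than the main fit. With GC correction MLXIP was called in both lines (adjusted p = 0.029 in HT29 and 0.044 in SW480). The E-box factor USF2 was called in HT29 as well (0.12, adjusted p = 0.040). These fits called 2618 of 11422 genes in HT29 and 2383 of 12419 in SW480. The list median was 0.08 in HT29 and 0.23 in SW480.

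MYC's induced targets moved in both directions in HT29. Of 66 tested, 11 rose and 8 fell, where 7.76% of all genes rose and 9.82% fell, and the median log2 fold change was 0.02. ODC1, the first enzyme of polyamine synthesis, rose by 0.43 on the log2 scale (SE 0.03, adjusted p = 1.8e-08 by edgeR), from 357.5 and 345.1 CPM to 475.8 and 467.8 CPM. RRP9, a protein of ribosomal RNA processing, rose by 0.39 (SE 0.07). The nucleoside transporter gene SLC29A2 fell by 0.38 (SE 0.07), and SLC19A1, the reduced folate carrier, fell by 0.35 (SE 0.09). RRP9 and SLC29A2 lost their calls with all 8 libraries fitted together (adjusted p = 0.10 and 0.19 by edgeR). ODC1, RRP9 and SLC29A2 were not called in limma without a trend (adjusted p = 0.065, 0.075 and 0.083). SLC19A1 lost its call with all 8 libraries, with DESeq2 (adjusted p = 0.14), in the limma fits and without 2 of the single libraries. In SW480, 0 of 67 rose and 1 fell by edgeR, where 1.22% of all genes rose and 2.08% fell, and the median was 0.07. This was LDHA, lactate dehydrogenase A, at 1228 and 1152 CPM under control siRNA and at 914 and 899 CPM after PrxII depletion (log2 fold change -0.39, SE 0.08, adjusted p = 0.038 by edgeR). The call on LDHA was lost in the limma fits (adjusted p = 0.11 to 0.20) and without either PrxII siRNA library. In the latter fits its log2 fold change was -0.40 and -0.38, and far fewer of all genes were called than in the main fit. With GC correction 7 of these targets rose and 8 fell in SW480, where that fit called 2383 of 12419 genes. Without either SW480 control library more of these targets were called in each direction, as were more of all genes. The counts in SW480 thus depended on the processing and on single libraries.

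Of 11 tested genes that MYC is known to repress, 4 rose and 1 fell in HT29, where 7.76% of all genes rose and 9.82% fell, and the median was 0.13. CDKN1A, a cyclin-dependent kinase inhibitor, was at 34.8 and 34.0 CPM against 58.8 and 55.1 CPM, a log2 fold change of 0.73 (SE 0.07, adjusted p = 6.5e-07 by edgeR). CDKN2B, an inhibitor of CDK4 and its relative, rose by 0.54 (SE 0.09), and GADD45A, a growth-arrest and DNA-damage gene, rose by 0.41 (SE 0.06). The fourth was THBS1 at 0.19, outside the naming rule and given here after its value was seen. Relatives of these inhibitors on the same list were not called, with CDKN1B at 0.13, CDKN1C at -0.18 and GADD45B at -0.18. Limma without a trend did not call CDKN1A, CDKN2B or GADD45A (adjusted p = 0.053, 0.0615 and 0.075). CEBPA, a differentiation factor, fell by 0.34 (SE 0.10, adjusted p = 0.032 by edgeR), and this call was lost with all 8 libraries (adjusted p = 0.45), DESeq2 (0.30), the limma fits (0.11 to 0.16) and without 3 of the 4 single libraries. In SW480, CDKN1A was the only one of 11 called, at 134.8 and 156.3 CPM against 226.0 and 228.8 CPM, a log2 fold change of 0.64 (SE 0.11, adjusted p = 0.025 by edgeR). That call held without either control library and was lost in limma without a trend (adjusted p = 0.069). It was also lost without either PrxII siRNA library, in fits that called far fewer of all genes than the main fit. The log2 fold change of CDKN1A was 0.65 and 0.64 there. The list median in SW480 was 0.05. Genes of this list were called in both directions without either control library, in fits that called more of all genes.

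Among cofactor and turnover genes, the largest called change in HT29 was the fall of AURKA. In HT29, 3 of 10 coactivator subunits rose, where 7.76% of all genes did, the acetyltransferase EP300 by 0.28 (SE 0.05), the scaffold TRRAP by 0.19 (SE 0.04) and the helicase RUVBL1 by 0.12 (SE 0.04, adjusted p = 0.0497 by edgeR), and the median was 0.10. The RUVBL1 call was lost with no filter (adjusted p = 0.059), all 8 libraries (0.52), DESeq2 (0.28), limma without a trend (0.13) and each fit without a single library (0.058 to 0.23). Of 11 corepressor genes 3 rose, SAP18 by 0.18, RBBP7 by 0.14 and RBBP4 by 0.14, all subunits of histone deacetylase complexes, with a median of 0.03. Of 12 genes that act on MYC protein stability, HUWE1, a ubiquitin ligase, rose by 0.21 (SE 0.03) and PPP2R5A, a phosphatase subunit, rose by 0.20 (SE 0.05), while AURKA, a mitotic kinase that stabilises MYC family proteins, fell by 0.46 (SE 0.05, adjusted p = 3.0e-06 by edgeR), with a median of 0.08. No rise on these 3 lists was called with all 8 libraries fitted together or in limma without a trend. The fall of AURKA was not called in limma without a trend either (adjusted p = 0.072). SAP18, RBBP4 and PPP2R5A also lost their calls in DESeq2 (adjusted p = 0.074, 0.087 and 0.24 by DESeq2). Each of them lost its call without at least 1 of the single HT29 libraries as well. In SW480 none of these genes was called by edgeR, and the medians were 0.20, -0.08 and 0.01. Without either SW480 control library all 3 lists held called rises and falls, in fits that called more of all genes than the main fit. No gene of any list differed in its effect between the lines by edgeR's test, and with GC correction some did, among them 3 induced targets in each direction.

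**Figure D5:**
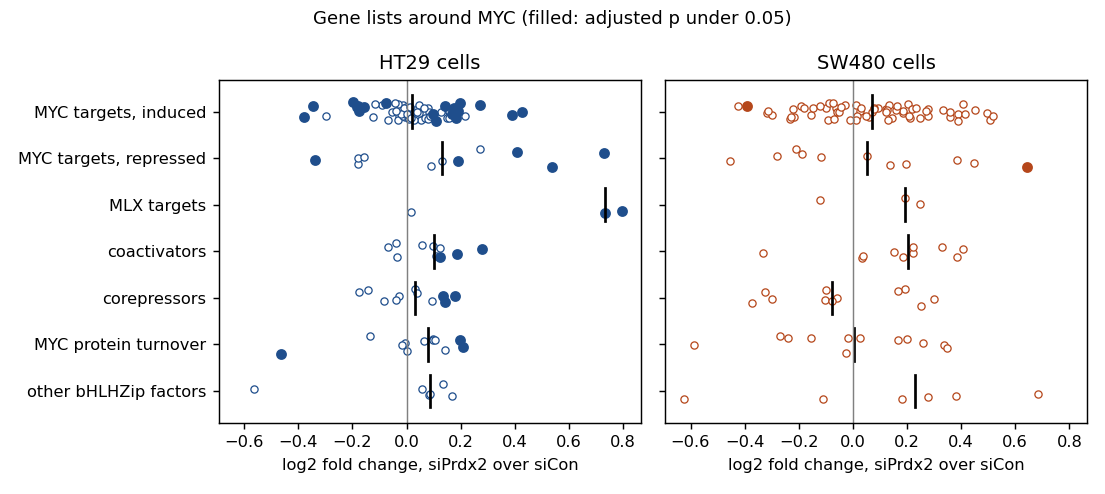
log2 fold change of PrxII siRNA over control siRNA for each tested gene of 7 lists around MYC in HT29 (left) and SW480 (right), with filled points for an adjusted p under 0.05 and a bar at each list's median. TXNIP and ARRDC4 lie at 0.73 and 0.80 in HT29, and the induced targets spread on both sides of 0 in both lines.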

How the data were processed

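Messenger RNA was measured in 8 libraries, 2 per line and siRNA, grouped by the labels. The authors trimmed the reads, checked them with FastQC, aligned them to hg19 with MapSplice and ran RSEM on refGene. They deposited for each gene an expected count, TPM values scaled to the same total per library, FPKM values scaled by length and library total, and a transcript length. The FPKM values were not used. The submitters' notes also name DESeq2.

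Expected counts were rounded and tested with edgeR 4.0.16 in R 4.3.3 (glmQLFit and glmQLFTest, TMM, Benjamini-Hochberg adjusted p under 0.05). Genes entered a fit when 2 or more of its libraries held 10 counts or more. Fits were made within each line, with line by treatment in all 8 libraries, and between the 4 control libraries. The comparison between lines uses the control libraries of both PrxII comparisons. Intervals are at 95%. The alternatives were RLE normalization, no filter, a replicate block, all 8 libraries together, a robust prior, a loess GC correction (span 0.5) with and without the block, DESeq2 1.42.0, limma 3.58.1 with a trend on log2(TPM + 1) and log2(TPM + 0.1), and leaving out each library. limma without a trend was added after seeing the data. GC content from GENCODE 44 on GRCh37 was matched to 82.3% of symbols. The scripts were tested on simulated data.

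The members and lists were chosen with earlier results of these data known. All members, and per list and line the 4 called genes of largest change with at least 5 CPM on average, were named. The 5 genes most like MYC in pattern were taken by Pearson correlation, and 1 of them is not reported here.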

Additional observations from a re-analysis of the deposited data

Results flagged for a closer look

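MXD4 is listed because its response to PrxII depletion differed between the lines by the test of the difference itself. The log2 fold change in HT29 minus that in SW480 was -0.97 (SE 0.17, adjusted p = 0.026 by edgeR's quasi-likelihood test), from -0.05 in HT29 and 0.92 in SW480. Over its 18 alternative fits the difference stayed between -1.18 and -0.72 and passed the threshold in 9. Both SW480 PrxII siRNA libraries were higher than both controls, and the HT29 libraries overlapped.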

How the results depend on the processing

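Of 912 alternative values for single genes, 775 kept their direction and their side of the threshold, 88 lost and 22 gained a call, and 27 changed direction. The members called in HT29 numbered 2, but 1 with no filter and with DESeq2, 0 with all 8 libraries together or limma without a trend, and 1 to 1 without any 1 library. In SW480 the count of 1 became 2 with all 8 libraries and with GC correction (2 with the block), and 0 in limma with a pseudocount of 0.1 or without a trend. Without 1 library it rose in the fits that called more of all genes than the main fit and fell in those that called fewer. The count of 1 member differing between lines became 0 in the limma fits, which called 43 to 103 of 14772 genes against 166 in the main fit. Without 1 library that count fell where fewer of all genes were called, and held or rose where more were. The 6 members called between lines under control siRNA became 8 with GC correction. Without 1 HT29 control library a smaller share of members and of all genes was called there, and without 1 SW480 control library a larger share of both. Induced targets higher in HT29 (11) became 1 with all 8 libraries, 2 with DESeq2 and 0 in limma without a trend, and those lower (8) became 0, 3 and 0, with 2 in the other limma fits. Without 1 library they were 3 to 9 and 4 to 7. In SW480 those higher (0) became 4 with the replicate block, 6 with all 8 libraries and 7 with GC correction, those lower (1) became 2, 5 and 8, and 0 in the limma fits. Without 1 library they were 0 to 28 and 0 to 18.

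Directions changed among values near 0. The log2 fold change of MYC in HT29 was 0.0004454 with RLE, 0.001412 with no filter, 0.0001524 with the block, 0.001855 with all 8 libraries, 0.0004215 with DESeq2, 0.06403 and 0.06429 in limma, and -0.03736 to 0.03624 without 1 library. MXD4 in HT29 was 0.01627 and 0.01675 in limma. Without 1 library, MAX was -0.02723 to 0.129 and MYCBP -0.01265 to 0.07369 in HT29, and MXD1 -0.03383 to 0.3149 and MYCBP -0.1587 to 0.1913 in SW480. The difference between lines of MYCBP was -0.1692 with GC correction, -0.1702 with the block added, -0.01353 and -0.01409 in limma, and -0.1612 to 0.1738 without 1 library. That of MAX was -0.1274 to 0.02629, and MYCBP between lines under control siRNA was -0.3143 to 0.01607. The cause was not tested.

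Replicate numbers pair nothing by the labels, and same-numbered deviations correlated at 0.12 in HT29 and 0.15 in SW480 over genes. The replicate block left the members called at 2, 1, 1 and 6, and moved all genes called from 2279 to 2889 in HT29 and from 466 to 1727 in SW480. DESeq2 called 871 and 686 genes, limma with a trend 1800 and 214, or 1795 and 177 with the smaller pseudocount, limma without a trend 26 and 12, GC correction 2618 and 2383, and all 8 libraries together 185 and 2415. A fit without a library leaves 1 in a group, which is assumed to vary like the others.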
